A study of Mus musculus with 157 samples.

Results

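Mouse chromosome 15, which carries Myc, is described here gene by gene in thymic lymphomas and thymus of mice with a mutant Cdc20. The members are the protein-coding genes of GRCm38 chromosome 15 with a mean CPM (normalised read count, scaled to library size) of 1 or more over the 76 libraries of the later sequencing run. Myc, Il7r, Il2rb, Ccn4, Cct5 and the genes of ribosomal proteins (Rpl3, Rpl8, Rpl30 and Rpl37) were left out by the rule. Rps19bp1, which encodes a binding partner of a ribosomal protein and not a subunit, was kept. This gave 451 members of 50686 genes in the table and of 768 protein-coding genes on the chromosome. The genes were selected on measured CPM, and the ratio of each group to control thymus is part of the rule, so that ratio is given as a description with no test. Just inside the CPM limit were Rnd1 (1.02), Arhgap8 (1.03) and Tmem65 (1.09), and just outside were Fam227a (0.933), Apol9b (0.897) and Nptxr (0.857). Of the 451 members, 407 also had a mean of 1 CPM or more in control thymus, and the other 44 passed only through other groups.

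Cdc20 activates the anaphase-promoting complex, which lets sister chromatids separate. The AAA form of the protein is one that the spindle checkpoint cannot hold back, so chromosomes can be shared out unequally at division. A whole extra chromosome raises the DNA dose of each of its genes, and transcripts may follow that dose, fall short of it (buffering) or exceed it where the gene is also regulated in another way. Gain of chromosome 15 is a known feature of mouse T cell lymphoma, and Myc is the gene usually considered for it. DNA copy number was not measured in the libraries used here.

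The control group was thymus labelled RERT2-Cdc20(+/D) (n = 6). Mutant thymus was labelled RERT2-Cdc20(D/AAA) (n = 9). Thymus with the MYCChr6 allele, in which human MYC is inserted on mouse chromosome 6, had 2 libraries of RERT2-Cdc20(+/D) and 3 of RERT2-Cdc20(D/AAA). Tumours were RERT2-Cdc20(D/AAA) (n = 22), the same genotype with p53(+/D) (n = 10), RERT2-Cdc20(D/AAA) with MYCChr6 (n = 3), LCK-Cdc20(+/D) with MYCChr6 (n = 4), LCK-Cdc20(D/AAA) with MYCChr6 (n = 14), CD4-Cdc20(D/AAA) with MYCChr6 (n = 2) and p53(-/-) (n = 1). RERT2, LCK and CD4 name the driver of the mouse line, and the controls carry the RERT2 driver and 1 copy of the D allele too. From the earlier run, sorted double positive (DP) thymocytes of RERT2-Cdc20(+/D) (n = 7) and RERT2-Cdc20(D/AAA) (n = 11) and DP cells of early RERT2-Cdc20(D/AAA) tumours (n = 5) were used. Later-run tumours were not sorted, so fewer cells of a type and less RNA per cell cannot be told apart. Nothing in the labels says that the samples of a group came from separate animals, and p-values then measure only the spread between these samples. Total counts ran from 1708619 to 8009572 in the later run and from 2701382 to 10219745 in the 23 DP libraries. The T cell gene Cd3e was at 2192 to 2727 CPM in control thymus, 843 to 2056 in the RERT2-Cdc20(D/AAA) tumours and 143 to 952 in the LCK-Cdc20(D/AAA) MYCChr6 tumours. Cd4, Cd8a and Rag1 also had lower medians in both tumour groups. Ptcra, another T lineage marker, had medians of 24.9 CPM in control thymus, 60.9 in the RERT2 tumours and 0.423 in the LCK tumours. One of the 14 LCK tumours, replicate 9, stood apart, with a scaling factor of 0.434 and 15938 CPM summed over 6 B cell markers, the highest of its group (group median 548).

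Promoters were matched for 250 members in the RefSeq table of GRCm38.p6. The E-box CACGTG, a sequence that MYC can bind and that reads the same on both strands, was present between 250 bases before and 50 after any listed start in 10.8% of matched members and in 8.09% of all 27025 genes of the table. Several starts were listed for 24.0% of the matched members and 15.4% of all genes, and a gene with more starts has more sequence searched. The median log2 ratio in the RERT2-Cdc20(D/AAA) tumours was 0.71 in the 27 members with the motif and 0.59 in the 223 without. It stood in 12.3% of the matched members of the highest of 4 classes by ratio (defined below with the ratios) and in 12% of those of the lowest. The 5 promoters below are shown because their genes carry the motif and lie at different ends of the ratios. Each is the 250 bases before a RefSeq start, 5′ to 3′ on the gene's strand, with the motif in capitals. Espl1 (separase, which cuts cohesin) is at chr15:102296043-102296292 on the plus strand and Rrp7a (ribosomal RNA processing) at chr15:83122802-83123051 on the minus strand. Foxred2 (a flavoprotein of the endoplasmic reticulum) is at chr15:77956723-77956972 on the minus strand, with 2 motifs. Tnrc6b (a scaffold of microRNA silencing) is at chr15:80798360-80798609 on the plus strand, before a second RefSeq start inside the gene (the stretch around its first start, 80711313, lacks the motif), and Arsa (a lysosomal sulfatase) at chr15:89477425-89477674 on the minus strand.
Espl1: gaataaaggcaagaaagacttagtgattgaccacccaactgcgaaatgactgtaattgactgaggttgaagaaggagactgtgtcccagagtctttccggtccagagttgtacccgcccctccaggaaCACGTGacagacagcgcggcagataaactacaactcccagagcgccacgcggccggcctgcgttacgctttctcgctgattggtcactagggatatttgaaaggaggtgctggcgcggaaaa
Rrp7a: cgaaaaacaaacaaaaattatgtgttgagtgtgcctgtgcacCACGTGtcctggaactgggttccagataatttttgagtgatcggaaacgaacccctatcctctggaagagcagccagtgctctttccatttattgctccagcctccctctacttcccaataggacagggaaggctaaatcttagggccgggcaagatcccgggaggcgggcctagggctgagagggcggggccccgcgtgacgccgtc
Foxred2: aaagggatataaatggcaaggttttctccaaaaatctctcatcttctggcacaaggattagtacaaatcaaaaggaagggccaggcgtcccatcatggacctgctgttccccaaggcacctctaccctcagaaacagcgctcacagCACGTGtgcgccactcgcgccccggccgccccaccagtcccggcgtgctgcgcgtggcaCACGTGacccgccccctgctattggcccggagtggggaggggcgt
Tnrc6b: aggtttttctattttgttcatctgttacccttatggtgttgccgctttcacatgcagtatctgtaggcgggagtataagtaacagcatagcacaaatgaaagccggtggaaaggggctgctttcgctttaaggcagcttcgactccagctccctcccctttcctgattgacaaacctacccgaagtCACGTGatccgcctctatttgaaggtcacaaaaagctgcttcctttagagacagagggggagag
Arsa: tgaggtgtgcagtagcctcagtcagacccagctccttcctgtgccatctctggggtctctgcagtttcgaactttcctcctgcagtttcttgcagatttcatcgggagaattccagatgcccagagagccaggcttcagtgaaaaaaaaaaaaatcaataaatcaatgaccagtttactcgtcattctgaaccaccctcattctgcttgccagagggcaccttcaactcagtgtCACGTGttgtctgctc
The log2 ratio in the RERT2-Cdc20(D/AAA) tumours was 1.36 ± 0.31 (SE, n = 22 against 6) for Espl1, 1.28 ± 0.22 for Rrp7a and 0.65 ± 0.38 for Foxred2. It was -0.90 ± 0.21 for Tnrc6b and -1.03 ± 0.30 for Arsa, so the motif stood before genes of both directions.

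The first question was how far the members as a whole lay above control thymus in each group. For every library a chromosome 15 score was computed, the median over the 451 members of the log2 ratio to the control mean, on the log2(CPM + 0.5) scale. If 3 copies gave 1.5 times the RNA of 2, the score would be 0.58. Control thymus libraries scored from -0.06 to 0.07 (median 0.01). The 22 RERT2-Cdc20(D/AAA) tumours scored from 0.33 to 0.85 (median 0.56), the 10 p53(+/D) tumours from 0.39 to 0.81 (median 0.50), and the p53(-/-) tumour 0.52. Every one of these 33 tumours was above every control library. The 14 LCK-Cdc20(D/AAA) MYCChr6 tumours were spread from -0.03 to 0.96 (median 0.47), and replicate 9 was the lowest of them. In tumours of the other MYCChr6 groups the scores were lower. They ran from -0.02 to 0.44 in LCK-Cdc20(+/D), from 0.08 to 0.33 in RERT2-Cdc20(D/AAA) and from 0.12 to 0.28 in CD4-Cdc20(D/AAA). Mutant thymus fell between, from -0.08 to 0.51 (median 0.20), and 4 of its 9 libraries were above 0.29. Thymus with MYCChr6 scored -0.07 and 0.03 in RERT2-Cdc20(+/D) and 0.02, 0.07 and 0.61 in RERT2-Cdc20(D/AAA).

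**Figure D1:**
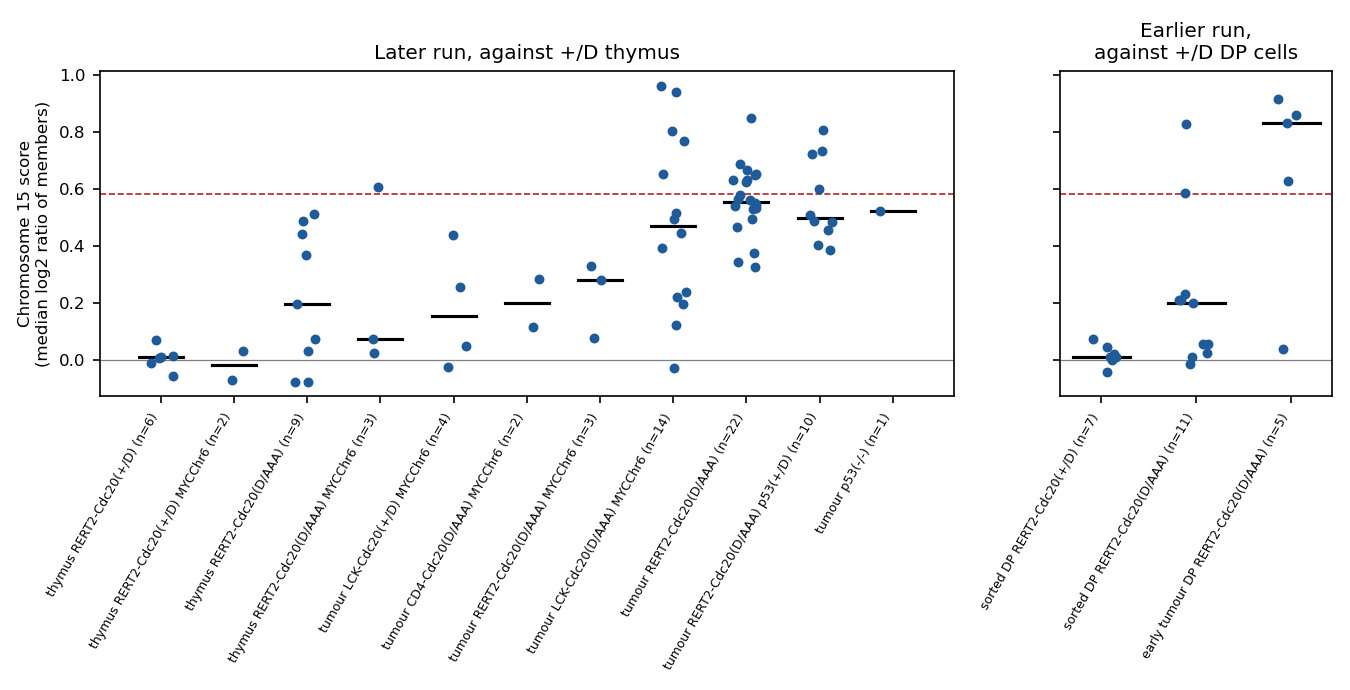
Each point is 1 library, the y axis is its chromosome 15 score (median log2 ratio of members), black bars are group medians and the dashed line is log2 of 1.5, at 0.58. The 22 RERT2-Cdc20(D/AAA) tumours sit between 0.33 and 0.85 and the 14 LCK-Cdc20(D/AAA) MYCChr6 tumours between -0.03 and 0.96. The right panel gives DP libraries of the earlier run against +/D DP cells, where 4 of 5 early tumours are at 0.63 to 0.92.

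The score is a median over genes that did not all move. Of the members, 59.0% to 75.6% were above the control mean in a given RERT2-Cdc20(D/AAA) tumour, against 42.8% to 55.0% in a given control library. Chromosome 14 without T cell receptor genes also lay above control in these tumours, with a median score of 0.47, and at 0.61 in the p53(+/D) tumours. It was at 0.08 in the LCK-Cdc20(D/AAA) MYCChr6 tumours, where chromosome 15 was at 0.47.

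The next question was which single members followed the dose. In the fit across all genes the median log2 ratio of the members was 0.65 in the RERT2-Cdc20(D/AAA) tumours, with a lower quartile of 0.01 and an upper quartile of 1.29. With genes taken by a mean of 1 CPM or more in control thymus in place of all libraries, the median was 0.55. Members were sorted into 4 classes by this ratio. A gene in the lower class was below -0.29, one in the unchanged class was within 0.29 of 0, one in the single-gain class lay from 0.29 to 0.88, around the value for 1 extra copy, and one in the highest class was above 0.88. The lower class held 80 members (17.7%, beside 36.1% of 10484 protein-coding genes of the other autosomes with the same CPM limit). The unchanged class held 85 (18.8%, beside 23.7%), the single-gain class 103 (22.8%, beside 19.2%) and the highest class 183 (40.6%, beside 20.9%). These shares are set by the contrast that the rule used and carry no test.

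The members were about as scattered as other genes. The interquartile range of their ratios was 1.29, and that of the other autosomes was 1.33. When the other autosomes were moved up to the members' median, their shares became 16.6%, 18.7%, 23.8% and 40.9%. Those are close to the members' own 4 shares, in the same order. Fitting error was large beside the class width: with 2 SE on each side, 21 members stayed in the lower class, 64 in the highest class and 0 in the unchanged or single-gain class. No member thus lay clear of both limits of the unchanged or the single-gain class, and following the dose and being buffered could not be told apart gene by gene from this ratio.

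**Figure D2:**
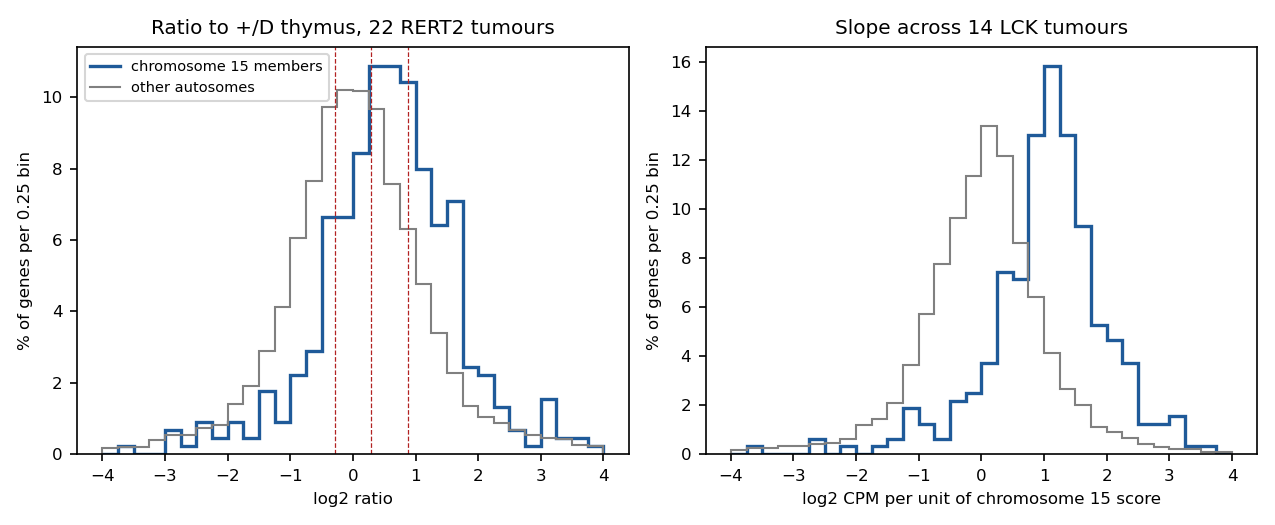
The left panel gives the share of genes per 0.25 of log2 ratio to control thymus in the 22 RERT2-Cdc20(D/AAA) tumours, and the right panel the share per 0.25 of slope across the 14 LCK-Cdc20(D/AAA) MYCChr6 tumours, for members (blue) and other autosomes (grey). Members are moved to the right of the other autosomes in both, and dashed lines on the left mark the class limits at -0.29, 0.29 and 0.88. The left panel shows the ratio that the rule used. On the right, a centre of members near 1 is built in by the score, so neither shift carries a test.

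Genes nearest to the members' median ratio were Nup50, Pcbp2, Fam49b, Foxred2, Rnf19a and Mroh1. Nup50, a protein of the nuclear pore (chromosome 15, 84923411 to 84942963), had 22.7 to 37.4 CPM in control thymus (median 29.6) and 30.3 to 70.7 in the RERT2-Cdc20(D/AAA) tumours (median 48.3). Of the 22 tumours, 17 were above every control library, and the log2 ratio was 0.66 ± 0.18. Pcbp2, an RNA-binding protein, had 168 to 236 CPM in control thymus (median 207) and 234 to 477 in these tumours (median 310), 21 of them above every control. Its log2 ratio was 0.65 ± 0.16. Mroh1 shared this ratio (0.66 ± 0.37), but its tumours ran from 17.7 to 129 CPM around a control range of 20.4 to 51.4, and 3 of them were below every control library.

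The highest log2 ratios belonged to genes with few counts in control thymus, and their fitted ratios depend on the prior count of the fit. Plxnb2, Soat2, Card10, Prr5 and Vdr had means under 1 CPM in control thymus. They passed the CPM limit only through other groups, so nothing is read from their high ratios. Plxnb2, a semaphorin receptor, had 0 to 1.90 CPM in control thymus (median 0.186) and 1.90 to 156 in the RERT2-Cdc20(D/AAA) tumours (median 17.6). Fbln1, an extracellular matrix protein, had 1.16 to 7.01 CPM in controls (median 3.79) and 29.6 to 207 in tumours (median 105), with all 22 tumours above every control and a log2 ratio of 4.81 ± 0.91. Soat2, which esterifies cholesterol, had up to 1.86 CPM in controls and 0.884 to 31.3 in tumours (median 10.3). Elfn2 had a control median of 1.67 and a tumour median of 37.1 CPM, and 21 of 22 tumours were above every control. Vdr, the vitamin D receptor, was at most 1.11 CPM in controls and from 0 to 42.7 in tumours, of which 12 were above every control. Card10 and Prr5, a component of mTOR complex 2, had tumour medians of 5.69 and 6.62 CPM and control medians of 0.35 and 0. Ly6c1 had 0.292 to 7.44 CPM in controls and 0.221 to 794 in tumours, but it shares sequence with its neighbour Ly6c2, and the counting may have split their reads.

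At the other end were members with fewer transcripts in tumours than in control thymus. Pou6f1, a POU-domain transcription factor, had 41.8 to 84.1 CPM in control thymus (median 65.6) and 2.66 to 45.9 in the RERT2-Cdc20(D/AAA) tumours (median 13.2). In 21 of 22 tumours it was below every control, and its log2 ratio was -2.09 ± 0.36. Card6 had 33.1 to 60.6 CPM in controls and a tumour median of 1.71, with 21 tumours below every control and 1, at 71.1 CPM, above. Trps1, a zinc finger repressor, had 5.62 to 13.9 CPM in controls and a tumour median of 0. Tmem71 had control and tumour medians of 6.78 and 0.545 CPM, Amigo2 3.95 and 0.219, and Apol7e, one of a family of similar apolipoprotein L genes, 12.5 and 0. Mapk11, a p38 kinase, had medians of 10.8 and 1.52 CPM. Ly6c2 ran from 22.7 to 59.4 CPM in controls and from 0 to 22.3 in tumours, without overlap.

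By function, the members differed in where they lay. Only genes on chromosome 15 were counted in each list, here and in the comparisons below. Whether a list's values are particular to this chromosome was not tested. Of 26 members in ribosome assembly and translation, 20 were in the highest class, 5 in the single-gain class and 1 in the lower class, and the list's median log2 ratio was 1.28, beside 0.65 for all members. Polr2f, a subunit shared by RNA polymerases, had 6.50 to 17.3 CPM in control thymus (median 12.4) and 36.2 to 91.0 in the RERT2-Cdc20(D/AAA) tumours (median 58.4), with no overlap and a log2 ratio of 2.27 ± 0.26. The exception in the list was Maf1, the repressor of RNA polymerase III, at 104 to 175 CPM in controls and 70.0 to 148 in tumours (log2 ratio -0.41 ± 0.14). Of 28 members in cell division and genome maintenance, 17 were in the highest class (list median 1.17). The DNA helicase gene Recql4 had a control median of 2.33 and a tumour median of 14.8 CPM, with 19 of 22 tumours above every control. Tuba1a, whose reads may be shared with other tubulin genes, was the list's lowest member named here at -0.34 ± 0.29.

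Among 21 members that encode mitochondrial proteins, 14 were in the highest class and 0 in the lower class (median 1.12). Sco2, which inserts copper into cytochrome c oxidase, had 0 to 3.16 CPM in control thymus and 1.81 to 27.6 in the RERT2-Cdc20(D/AAA) tumours, and Mpst was at -0.05 ± 0.42. Of 24 members in lipid, sugar and amino acid metabolism, 10 were in the highest class and 3 in the lower class (median 0.83). In that list Arsa had 32.5 to 57.2 CPM in controls and 3.35 to 44.2 in tumours, of which 20 were below every control. The 19 members in RNA splicing, processing and small RNA had a median of 0.65, the same as all members. Larp4, an RNA-binding protein, had 8.84 to 20.2 CPM in controls and 24.0 to 62.2 in tumours, without overlap, while Tnrc6b had 96.3 to 146 and 26.4 to 139, with 20 tumours below every control.

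Lists of regulators and surface proteins lay lower and were split. Of 41 transcription factor and chromatin members, 13 were in the lower class and 11 in the highest class (median 0.21). Of 35 members in lymphocyte signalling, adhesion and surface, 12 were in the lower class, 2 in the single-gain class and 13 in the highest class (median 0.25). The summed CPM of 8 T lineage markers was 6429 to 7568 in control thymus and 1800 to 4175 in the RERT2-Cdc20(D/AAA) tumours, and the part of this difference in the ratios of these lists was not tested.

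A second measure compared tumours of 1 group with each other. It was taken from the LCK-Cdc20(D/AAA) MYCChr6 tumours, whose scores covered almost 1 log2 unit. For each of 322 members with a mean of 10 CPM or more there, log2 CPM was regressed on the score of the other members across the 14 tumours. A slope of 1 means that the gene moved with the chromosome, and a slope of 0 that it did not. Control thymus enters only through the score, as the fixed reference of each member. The members' median slope was 1.13 (quartiles 0.59 and 1.61, median SE 0.44), and that of 6324 genes of the other autosomes was 0.06 (quartiles -0.51 and 0.59). Because the score is the members' own median, a member median near 1 and mostly positive slopes are built in, and nothing is read from their distance to the other autosomes, which were set against the same score. Slopes were above 0 for 286 of 322 members (88.8%), beside 53.8% of the other genes. Slopes between 0.5 and 1.5 were found for 158 members (49.1%), beside 21.8%. The tumours share 1 reference mean and the libraries differ in cell makeup, so the slopes are a description. Replicate 9 had the lowest score and the highest B cell marker sum. Replicate 8 had the highest score (0.96) and the highest sum of 6 myeloid markers (2177 CPM, group median 384). Without replicate 9 the members' median was 1.08. Without replicates 8 and 9, the 2 tumours farthest from the median score, it was 1.16. The lists by function had median slopes from 0.94 (transcription factors and chromatin, 31 members) through 1.26 (lymphocyte signalling and surface, 28) and 1.32 (ribosome assembly and translation, 24) to 1.41 (metabolism, 18). Slope and ratio are on different scales and the slopes cover fewer members, so their spreads were not compared.

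Slopes were over 1 by more than 2 SE for 50 members (15.5%, beside 0.933% of the other autosomes, which centre near 0 by construction and are no reference for exceeding the dose). Pop1, a protein of RNase P and RNase MRP (chromosome 15, 34495304 to 34530648), had 3.70 to 82.6 CPM in the LCK-Cdc20(D/AAA) MYCChr6 tumours (median 22.9) and a slope of 3.61 ± 0.43. Adsl, an enzyme of purine synthesis, had 33.9 to 310 CPM (slope 2.30 ± 0.36, and 1.82 ± 0.30 without replicate 9). Drosha, the nuclease that starts microRNA maturation, had 26.2 to 153 CPM and a slope of 2.13 ± 0.24. Pmm1, an enzyme of mannose metabolism, had 22.9 to 208 CPM and a slope of 3.01 ± 0.33. All of these genes were in the highest class in the RERT2-Cdc20(D/AAA) tumours too, with log2 ratios of 1.78 ± 0.40 (Pop1), 1.77 ± 0.26 (Adsl), 1.3 ± 0.25 (Drosha) and 1.45 ± 0.31 (Pmm1). Across the RERT2-Cdc20(D/AAA) tumours their slopes were 1.03 ± 0.92 (Pop1), 0.79 ± 0.53 (Adsl), 0.26 ± 0.54 (Drosha) and 0.04 ± 0.83 (Pmm1), none over 1 by more than its SE. Replicate 9 was the lowest library for each of these 4 genes. These examples were chosen after their values were seen.

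Slopes were under 0.5 by more than 2 SE for 5 members (1.55%, beside 27.1% of the other autosomes, with the same limit). They were Nckap1l, a WAVE complex protein of blood cells, with 111 to 196 CPM and a slope of -0.41 ± 0.23, and Calcoco1, Selenop, H1f0 and Ly6d, with slopes of -2.63 ± 0.82, -1.19 ± 0.59, -2.69 ± 1.18 and -4.28 ± 1.79. Calcoco1, Selenop and H1f0 had their highest value in replicate 9 (111, 140 and 152 CPM beside group medians of 17.1, 35.3 and 18.4). Without replicate 9 their slopes were -1.93 ± 0.87, -0.53 ± 0.55 and -2.05 ± 1.33. Nckap1l stayed at -0.41 ± 0.27 without that library, and the count of slopes under 0.5 by more than 2 SE became 9.

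The ratio and the LCK slope come from separate tumours. Spearman's rho between them across 322 members was 0.30, with genes as points that share libraries and scaling. The median slope was 0.51 in members of the lower class (47 with a slope), 0.88 in the unchanged class (61), 1.05 in the single-gain class (80) and 1.40 in the highest class (134). A slope above 0.5 was found for 51.1%, 72.1%, 82.5% and 86.6% of them in that order. Some members with an unchanged or lower ratio had slopes well above 0. Rac2, a small GTPase of blood cells, had 479 to 548 CPM in control thymus and 373 to 852 in the RERT2-Cdc20(D/AAA) tumours (log2 ratio 0.11 ± 0.16), and 379 to 1195 CPM in the LCK-Cdc20(D/AAA) MYCChr6 tumours with a slope of 1.56 ± 0.22. It was at 379 CPM in LCK replicate 9 and 1126 in replicate 8, and its slope without replicate 9 was 1.49 ± 0.25. The part of cell makeup in this slope was not tested. Myh9, the heavy chain of a nonmuscle myosin, had a log2 ratio of -0.79 ± 0.16 and a slope of 1.34 ± 0.26, and Plec, a cytoskeletal linker, -1.28 ± 0.24 and 1.83 ± 0.44. Rac2, Myh9 and Plec were also chosen after their values were seen. Across the RERT2-Cdc20(D/AAA) tumours, whose scores covered a narrower range, the median slope of 304 members was 0.70 with a median SE of 0.81. In that group the medians by class were 0.94, 0.69, 0.68 and 0.69 from the lower to the highest class, with no rise, and rho between the LCK and RERT2 slopes was -0.11 across 287 members. With that SE, single slopes in that group were imprecise. The medians of other chromosomes moved with the score there too. Farthest from 0 were chromosomes 16, 11, 12 and 17, with slopes of 0.79, 0.73, 0.54 and -0.59. In the LCK tumours these were at -0.06, -0.06, 0.22 and 0.18, and chromosome 3 lay farthest from 0, at 0.40. Why the slopes of the LCK and RERT2 tumours differed was not tested.

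**Figure D3:**
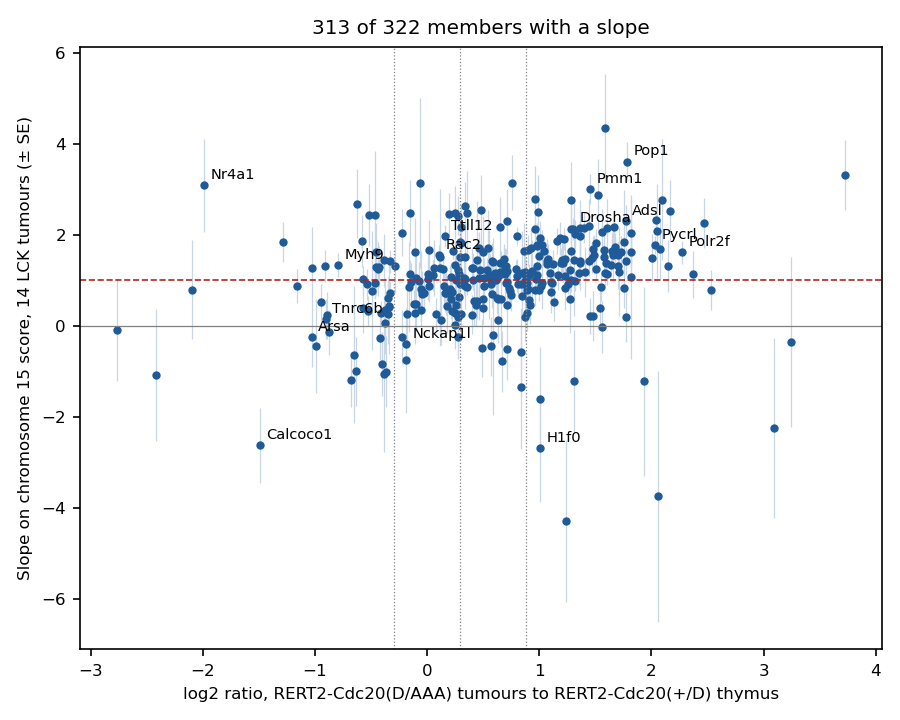
Each point is a member, with the log2 ratio of the RERT2-Cdc20(D/AAA) tumours to control thymus on the x axis and the slope across the 14 LCK-Cdc20(D/AAA) MYCChr6 tumours on the y axis (bars are SE), for 313 of 322 members inside the plotted range. The quartiles of the slope are 0.59 and 1.61, points spread over a wide range of ratios, and Calcoco1 is low on both axes.

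The rule did not use comparisons between tumour groups. LCK-Cdc20(D/AAA) MYCChr6 tumours were tested against RERT2-Cdc20(D/AAA) tumours with edgeR over all 20899 genes. Of the 451 members, 95 were higher (21.1%, beside 18.5% of all genes tested) and 98 lower (21.7%, beside 15.7%), and the members' median difference was -0.03, beside 0.00 for all genes. Of the 407 members with 1 CPM or more in control thymus, 76 were higher (18.7%, beside 17.5% of 12426 genes with that level). Lower were 92 of them (22.6%, beside 17.3%). The groups differ in driver and in the MYCChr6 allele at once, which cannot be told apart. Ly6c2 had 30.2 to 1101 CPM in the LCK tumours (median 164) and 0 to 22.3 in the RERT2 tumours, a log2 difference of 5.33 ± 0.52 (edgeR adjusted p = 1.4e-12). Card6 had medians of 38.3 and 1.71 CPM (2.74 ± 0.56, adjusted p = 8.0e-05), and Trps1 9.48 and 0 (2.67 ± 0.61, adjusted p = 0.00035). Gcat, an enzyme of threonine breakdown, had medians of 41.8 and 7.12 CPM (2.57 ± 0.43, adjusted p = 1.8e-06). Lower in the LCK tumours were Ly6k, with LCK and RERT2 medians of 0.589 and 84.5 CPM (-5.35 ± 1.10, adjusted p = 9.3e-05), Angpt1, 0 and 0.0848 (-4.04 ± 0.88, adjusted p = 0.00021), Matn2, 0.277 and 3.90 (-3.88 ± 0.64, adjusted p = 1.6e-06), and Ly6c1, 8.65 and 105 (-3.80 ± 0.78, adjusted p = 9.0e-05). Angpt1 had medians near 0 in both groups, with 0 to 1.08 CPM in the LCK tumours and 0 to 7.67 in the RERT2 tumours. Lymphocyte signalling and surface members moved both ways, 15 higher and 10 lower of 35, and members in RNA splicing and processing were lower in 8 of 19 and higher in 0. Genes of these functions on other chromosomes were not counted. The 6 B cell markers summed to 126 to 15938 CPM in the LCK tumours and 17.8 to 317 in the RERT2 tumours, the 6 myeloid markers to 131 to 2177 (median 384) and 25.3 to 185 (median 64.7), and the 8 T lineage markers to 247 to 3370 (median 1342) and 1800 to 4175 (median 2857). Their part in these differences was not tested. Without LCK replicate 9, 100 members were higher and 93 lower. The share of all genes in that fit is not given, so nothing about the members is read from these counts.

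The p53(+/D) tumours were set against the RERT2-Cdc20(D/AAA) tumours of the same genotype without that allele. Among members, 0 were higher and 1 was lower with edgeR (0.222%, beside 1.06% of all genes higher and 0.517% lower). At an unadjusted p under 0.05 there were 12 higher and 28 lower, and DESeq2 called 1 higher and 3 lower. For these counts no share of all genes is given, and nothing about the members is read from them. The one call was Gsdmd, which forms the pores of pyroptosis, with 0.349 to 16.6 CPM in the p53(+/D) tumours (median 8.12) and 7.96 to 44.3 in the others (median 15.5). Its log2 difference was -1.23 ± 0.32 (edgeR adjusted p = 0.029).

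RERT2-Cdc20(D/AAA) tumours were also tested against RERT2-Cdc20(D/AAA) thymus, which was not the control of the rule, although the tumours are those of the ratios above. Higher in tumours were 127 of 451 members (28.2%, beside 12.1% of all genes tested) and lower were 32 (7.10%, beside 11.4%). The median difference of members was 0.38, beside 0.04 for all genes. Members that passed the CPM limit only through tumours had to lie higher in them. Of the 407 members with 1 CPM or more in control thymus, 119 were higher and 31 lower (29.2% and 7.62%, beside 15.6% and 14.7% of 12426 genes with that level). The thymus libraries ranged in score from -0.08 to 0.51, and the part of this in the difference was not tested. Recql4 had 0 to 9.16 CPM in mutant thymus (median 2.37) and 5.13 to 31.5 in tumours, a log2 difference of 1.99 ± 0.41 (edgeR adjusted p = 0.00014). Prr5 had medians of 0 and 6.62 CPM (3.40 ± 0.76, edgeR adjusted p = 0.0005). Ptk2, the focal adhesion kinase, had 0.252 and 3.94 (3.10 ± 0.85, adjusted p = 0.0045), and Cela1, a protease, 0.547 and 6.03 (2.15 ± 0.70, adjusted p = 0.019). Prr5 and Ptk2 were under 1 CPM on average in thymus of either genotype, and Cela1 in control thymus (0.451). Prr5, Ptk2 and Cela1 passed the CPM limit only through other groups, which include these tumours. Their tests are therefore not independent of that limit. Ly6c2 fell by 3.38 ± 0.52 (adjusted p = 1.1e-06), Apol7e by 3.44 ± 0.83 (adjusted p = 0.0012), Trps1 by 2.85 ± 0.66 (adjusted p = 0.00073) and Card6 by 2.66 ± 0.61 (adjusted p = 0.00066). Ribosome assembly and translation had 21 of 26 members higher and 1 lower, cell division and genome maintenance 17 of 28 higher and 1 lower, and mitochondrial proteins 13 of 21 higher and 0 lower. Transcription factor and chromatin members were higher in 7 and lower in 6 of 41. Genes of the same functions on other chromosomes were not counted.

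The earlier run offered libraries that the rule did not use. The score of early tumour DP cells, taken against +/D DP cells over 421 members with a mean of 1 CPM or more there, was 0.04, 0.63, 0.92, 0.86 and 0.83 in replicates 1 to 5. Sorted +/D DP cells scored from -0.04 to 0.07. Sorted D/AAA DP cells scored from -0.02 to 0.83 (median 0.20), with 0.83 in replicate 1 and 0.59 in replicate 5. Early tumour replicate 1 was thus near the controls, and those D/AAA replicates were near the tumours.

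With edgeR, 153 of 420 members tested were higher in early tumour DP cells than in +/D DP cells (36.4%, beside 13.5% of 13133 genes tested) and 16 were lower (3.81%, beside 10.8%). The other 31 members had too few counts for the test. Without early tumour replicate 1, 177 were higher and 17 lower, and the lower count was 7 without replicate 3 or without replicate 4. No share of all genes is given for the fits with a library left out, and nothing about the members is read from those counts. The median difference of members was 0.63, beside -0.04 for all genes. Of 397 tested members with 1 CPM or more in control thymus, 143 were higher (36.0%, beside 14.1% of 11538 genes with that level). Lower were 16 of them (4.03%, beside 11.9%). Of the 166 tested members in the highest class, 116 were higher here and 0 lower, which is 69.9% of that class and 75.8% of the 153. Of 74 tested members in the lower class, 1 was higher and 13 lower. In the unchanged and single-gain classes, 9 of 83 and 27 of 97 were higher. Across 420 members the differences and the ratios of the later-run tumours had a Spearman's rho of 0.72, with no library in common. The early tumours have the genotype of the tumours that set the classes. The class counts and rho were not taken for genes of the other autosomes. Whether the agreement is particular to chromosome 15 was therefore not tested. Ribosome assembly and translation had 20 of 26 members higher and 0 lower, cell division and genome maintenance 17 of 28 and 0, and transcription factors and chromatin 10 of 40 and 4. These functions were not counted on other chromosomes.

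Vdr was at 5.32, 57.6, 7.05, 25.1 and 16.1 CPM in the 5 early tumours and at most 0.476 in +/D DP cells, a log2 difference of 7.59 ± 1.07 (edgeR adjusted p = 0.00016). Every early tumour was above every +/D library. Plxnb2 was at 1.62, 20.8, 9.59, 6.68 and 43.1 CPM against at most 0.126 (8.10 ± 1.72, adjusted p = 0.0018), and Ly6c1 at 40.5, 284, 2779, 428 and 307 against at most 10.5 (7.26 ± 1.48, adjusted p = 0.0019). Vdr and Plxnb2 had means of 0.229 and 0.524 CPM in control thymus. They passed the CPM limit only through other groups, which include tumours of the same genotype as the early tumours. Slc39a4, a zinc importer, was at 0 in replicate 1 and 8.01 to 19.4 in the others (6.37 ± 1.33, adjusted p = 0.0016). Kcnh3, a potassium channel gene, was at 86.3, 47.1, 38.4, 42.1 and 35.4 CPM against 92.4 to 184 (-1.36 ± 0.31, adjusted p = 0.0027), without overlap. Kifc2, a kinesin, was lower (-1.58 ± 0.49, adjusted p = 0.019), Itga5, the fibronectin receptor subunit, at -2.86 ± 0.97 (adjusted p = 0.031) and Arsa at -1.23 ± 0.43 (adjusted p = 0.040). Arsa was at 19.4, 17, 9.02, 11.3 and 19.7 CPM against 19.7 to 55.7 in +/D DP cells.

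Against D/AAA DP cells, with the same early tumours, 43 members were higher in early tumours (10.2%, beside 2.81% of all genes) and 2 lower (0.476%, beside 2.74%) with edgeR. This count rested on single libraries: it was 142 without D/AAA DP replicates 1 and 5, 124 without early tumour replicate 1, 16 without replicate 5, 1 without replicate 4 and 0 without replicate 3. Calls among all genes in those fits are not given, so only the instability of the count is read from them. Brix1, a ribosome assembly factor, was at 75.5, 218, 515, 295 and 239 CPM in early tumours and 39.2 to 270 in D/AAA DP cells (1.66 ± 0.35, adjusted p = 0.016). Sqle, an enzyme of sterol synthesis, was at 24.5, 92.8, 303, 90.1 and 140 CPM against 14.5 to 77.2 (1.81 ± 0.38, adjusted p = 0.016). Spats2 (1.84 ± 0.43, adjusted p = 0.021) and Atp5g2, a subunit of ATP synthase (1.74 ± 0.51, adjusted p = 0.046), were the other increases named, and Gsdmd was lower (-0.80 ± 0.23, adjusted p = 0.041). D/AAA against +/D DP cells gave 1 member higher (0.238%, beside 0.0228%) and 0 lower (beside 0.0152%). At an unadjusted p under 0.05, 68 were higher and 1 lower, and DESeq2 called 7 higher and 0 lower. Shares of all genes are not given for these last counts, so nothing about the members is read from them. The edgeR call was Vdr, at 0 to 18.6 CPM in D/AAA cells (median 4.10), with a log2 difference of 5.73 ± 0.97 (adjusted p = 0.018). In a fit of only these 2 groups it was not called.

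Along the chromosome, members were unevenly spread, from 7 in the 10 Mb bin from 40 Mb to 119 in the bin from 70 Mb. In the bins with at least 20 members, the median log2 ratio in the RERT2-Cdc20(D/AAA) tumours was 0.92 (30 to 40 Mb, 32 members), 0.92 (50 to 60 Mb, 34), 0.66 (70 to 80 Mb, 119), 0.66 (80 to 90 Mb, 99), 0.58 (90 to 100 Mb, 59) and 0.44 (from 100 Mb, 49). All of these medians were above 0. The 5 thinner bins ranged from -0.48 (20 to 30 Mb, 8 members) to 1.20 (40 to 50 Mb, 7). Near 0 were the 0 to 10 Mb bin (0.02, 19 members) and the 60 to 70 Mb bin, which holds Myc (0.11, 11 members). In the p53(+/D) tumours those bins were at -0.12 and -0.05. The 20 to 30 Mb bin was at 1.42 in the LCK-Cdc20(D/AAA) MYCChr6 tumours. Slopes across the LCK tumours had medians of 1.38 (30 to 40 Mb, 19 slopes), 0.95 (50 to 60 Mb), 1.14 (70 to 80 Mb), 1.14 (80 to 90 Mb), 0.96 (90 to 100 Mb) and 1.03 (from 100 Mb), the last 5 over at least 20 slopes each.

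**Figure D4:**
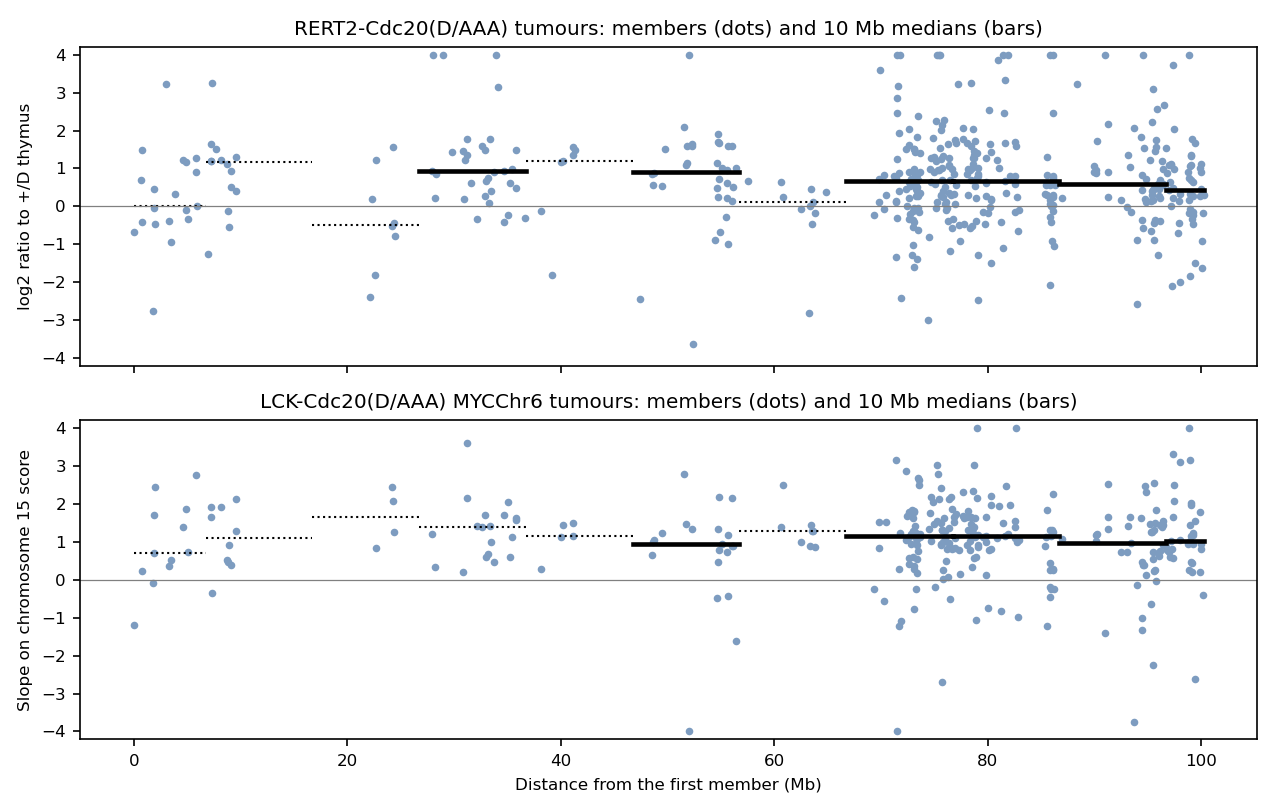
Members (dots, clipped at 4 and -4) are plotted by distance from the first member in Mb, above as log2 ratio of the RERT2-Cdc20(D/AAA) tumours to control thymus and below as slope across the LCK tumours. Bars are medians per 10 Mb bin, dotted where a bin has under 20 genes, and the solid bars lie from 0.44 to 0.92 above and from 0.95 to 1.14 below.

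Within 2 Mb of Myc (61985391 to 61990374) only Fam49b and Fam84b were members. Fam49b, a negative regulator of Rac1, had 12.1 to 18.8 CPM in control thymus and 12.9 to 32.8 in the RERT2-Cdc20(D/AAA) tumours, with 17 of 22 above every control (log2 ratio 0.65 ± 0.23). In the LCK tumours it had 27.6 to 81.9 CPM and a slope of 1.39 ± 0.25. Fam84b had at most 5.11 CPM in controls and 12 in tumours, with a log2 ratio of 0.67 ± 1.09. Myc itself had a slope of 0.52 ± 0.38 across the LCK tumours.

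To see whether whole libraries departed from this pattern over part of the chromosome, each of 55 libraries in groups of 9 or more was set against the median of its group, gene by gene, over 304 members with a mean of 10 CPM or more. For each library the contiguous stretch of at least 20 members that differed most from the rest was taken. It accounted for 35.3% of the spread in p53(+/D) tumour replicate 4 and 27.4% in RERT2-Cdc20(D/AAA) tumour replicate 22. The next library was at 9.50%, and the median over libraries was 3.98%.

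In RERT2-Cdc20(D/AAA) tumour replicate 22 the stretch ran from Dcaf13 (start 39112865) to Scaf11 (start 96411699). Its 196 members deviated by a median of -0.48 (quartiles -0.86 and -0.20), and 85.2% of them were below the group median. The 108 members outside were at 0.14 (quartiles -0.11 and 0.39). Against control thymus the members inside had a median log2 ratio of 0.18 and those outside 0.68, while the other 21 tumours were between 0.41 and 0.92 inside the stretch. The stretch includes Myc, which had 151 CPM in this tumour and 73.7 to 334 (median 164) in the others of the group.

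In p53(+/D) tumour replicate 4 the stretch was shorter, from Ly6c2 (start 75108158) to Pacsin2 (start 83375607). Its 109 members were at a median of -0.55 (quartiles -0.75 and -0.23), with 89.0% below the group median, and the 195 others at 0.12 (quartiles -0.03 and 0.36). Against control thymus the log2 ratio was 0.34 inside and 0.68 outside, and the other 9 tumours of the group were between 0.57 and 1.03 inside. Myc lies outside this stretch and had 221 CPM in this tumour. Both stretches were found by searching the data and have no replicate, and DNA copy number was not measured.

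**Figure D5:**
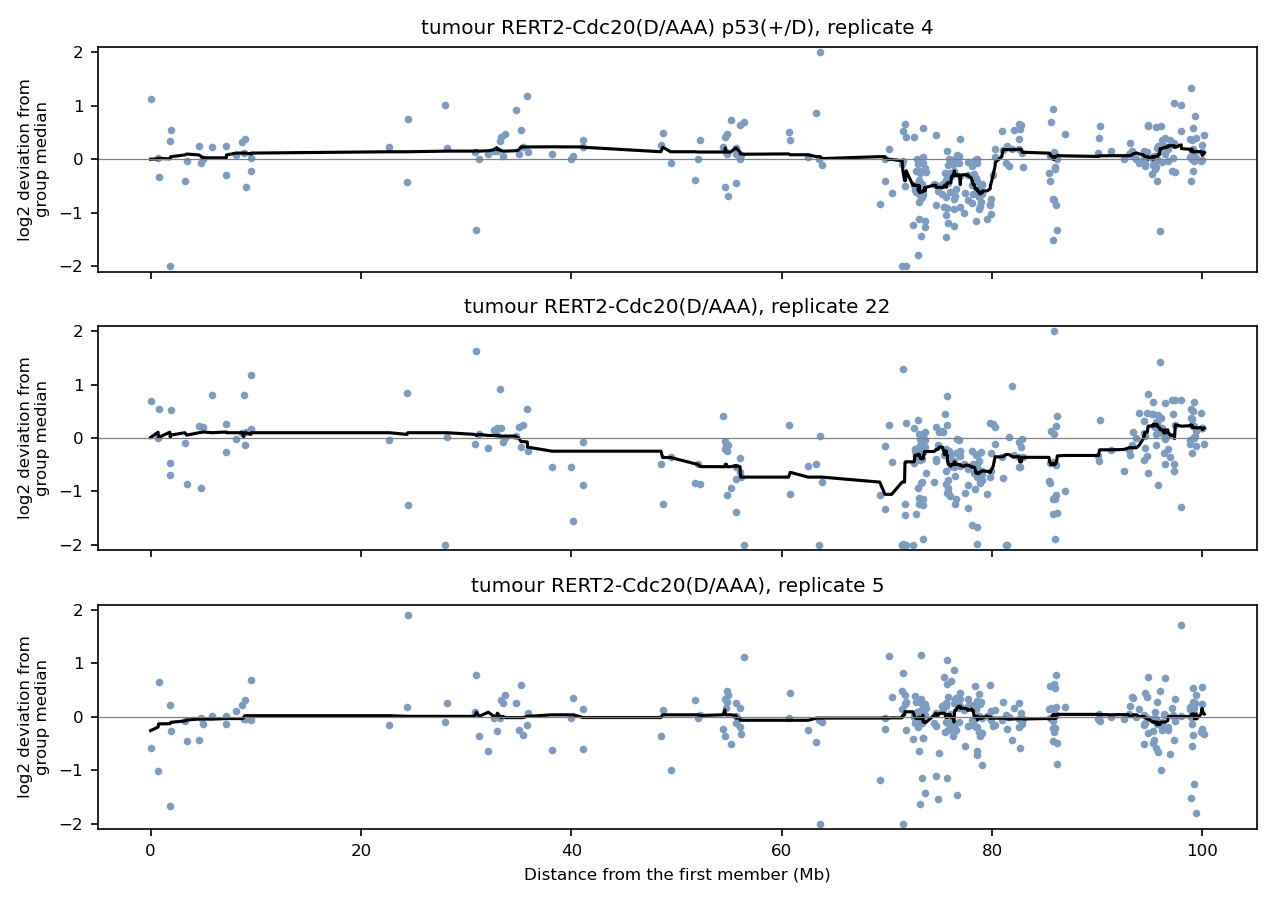
The y axis is the log2 deviation of a library from the median of its group for 304 members (dots, clipped at 2 and -2) and the x axis the distance from the first member in Mb, with a running median over 21 members as a line. The line dips in part of the chromosome in p53(+/D) tumour replicate 4 and RERT2-Cdc20(D/AAA) tumour replicate 22 and stays near 0 in RERT2-Cdc20(D/AAA) tumour replicate 5, where the strongest stretch held 1.99% of the spread.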

How the data were processed

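RNA-seq was used from 76 libraries of the later run and 23 DP libraries of the earlier run. The authors deposited expected counts (estimated counts per gene, all whole numbers) in 1 table per run. Per the submitters' processing notes, FastQC, STAR 2.5.3a, RSEM 1.3.0 and GRCm38 were used. For strandedness and annotation release, the sources used here give nothing, so reads of overlapping or antisense genes may be shared. Names and positions came from GENCODE M21, which lacks 224 of the 50686 gene IDs. All columns were matched to samples.

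Counts were filtered with filterByExpr, scaled by TMM and fitted with edgeR 4.0.16 (robust quasi-likelihood, 2-sided) in R 4.3.3, 1 fit per run. P-values were adjusted by Benjamini-Hochberg over the whole table of genes in a fit, and 0.05 was the limit for a call. An SE, given after ±, is the size of the log2 difference divided by the square root of F. Ratios to +/D thymus have no test because the rule used them. Scores and slopes used log2(CPM + 0.5), stretches deviations limited to 1 log2 unit. Scripts ran in Python 3.11.15 with pandas 2.3.3, and the tests were checked on simulated data.

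The members, role lists and marker lists were chosen with earlier results of these data known. Named genes had 5 CPM or more in RERT2 tumours or control thymus and were the 8 highest, 8 lowest and 6 nearest to the median by ratio, the extremes of each role list, members within 2 Mb of Myc, and the 4 largest called changes in each direction of each comparison. Others are marked as chosen after their values were seen. The search for stretches, the slope counts at 2 SE, the counts over members expressed in control thymus and the left-out libraries replicate 9 (LCK), 22 (RERT2) and 4 (p53(+/D)) were added after seeing the data. Alternatives were DESeq2 1.42.0, relative log expression, TMM without chromosome 15, no filter, other CPM limits, log2(CPM + 1), library sizes without the ribosomal RNA gene CT010467.1, fits of only the 2 groups, and libraries left out. A withheld result is not reported here.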

Additional observations from a re-analysis of the deposited data

Results flagged for a closer look

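In 87 checks of groups of 4 to 10 libraries, 13 had a library far from the others by Dixon's test, and chance flags about 1 in 20 groups. Most were genes with almost no counts. In control thymus the highest library was at 1.11 CPM for Prr5, 1.11 for Vdr, 2.01 for Cela1, 1.61 for Ptk2 and 6.27 for Slc39a4, and the lowest for Kcnh3 was at 44.6. In RERT2-Cdc20(D/AAA) thymus the highest library was at 3.08 CPM for Prr5 and 2.85 for Ptk2. In sorted +/D DP cells the highest was at 0.476 for Vdr and 0.569 for Slc39a4. In early tumour DP cells the highest library was at 2779 CPM for Ly6c1 (replicate 3), 9.72 for Itga5 and 86.3 for Kcnh3 (both replicate 1, the early tumour with the lowest chromosome 15 score). Without replicate 1 the log2 difference from +/D DP cells was -6.05 for Itga5 (edgeR adjusted p = 0.00034) and -1.66 for Kcnh3 (edgeR adjusted p = 0.00043). The causes were not tested.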

How the results depend on the processing

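Of 194 alternatives to results that answer a comparison, 164 kept the direction and stayed within the spread or within 1.5 times the count. The members' median log2 ratio in the RERT2-Cdc20(D/AAA) tumours, 0.65, was 0.51 as a difference of mean log2(CPM + 1), and the lower class held 48 members when a mean of 10 CPM was asked for, which leaves fewer genes. Mpst, at -0.05, turned to 0.27 without +/D thymus replicate 3, 0.08 without replicate 6 and 0.0084 with log2(CPM + 1), and was -0.20 at its lowest when 1 control was left out. For p53(+/D) against RERT2-Cdc20(D/AAA) tumours, a fit of only these 2 groups called 1 member higher, and DESeq2 called 1 higher and 3 lower. For early tumours against +/D DP cells, leaving out 1 early tumour gave 7 to 17 lower. For early tumours against D/AAA DP cells, leaving out 1 early tumour gave 0 to 124 higher and 0 to 8 lower. That comparison gave 142 higher and 5 lower without D/AAA DP replicates 1 and 5, 82 and 4 with DESeq2, 0 and 0 with only the 2 groups, and 1 lower without the count filter. D/AAA against +/D DP cells gave 7 higher with DESeq2, 0 with only the 2 groups and 0 among members with 1 CPM or more in control thymus, which leaves out Vdr. Shares of all genes are not given here for these alternative counts, and nothing about chromosome 15 is read from them. Leaving out 1 library, the median ratio was -0.13 to -0.0011 in +/D MYCChr6 thymus, 0.068 to 0.22 in CD4-Cdc20(D/AAA) MYCChr6 tumours and 0.19 to 0.39 in RERT2-Cdc20(D/AAA) MYCChr6 tumours, the groups with 2 or 3 libraries. Of 679 alternatives for single genes and for counts of slopes over 1, 637 were taken as unchanged. For a tested difference this meant that direction and call were kept. Ratios have no call, and had to keep direction and change by less than the SD between tumours. Counts of slopes had to stay within 1.5 times. Of the rest, 31 lost the call, 8 moved beyond these limits and 3 changed direction. Those 31 were in Arsa, Atp5g2, Brix1, Gsdmd, Itga5, Kifc2, Spats2, Sqle and Vdr. The causes were not tested. Depth limited genes near 0 CPM in control thymus, such as Prr5, whose log2 ratio was 4.81 and became 7.97 without +/D thymus replicate 3 and 2.15 with log2(CPM + 1). No paired analysis was possible because the labels give no replicate numbers, and samples were numbered in accession order.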
